A study of Mus musculus with 4 samples.

Results

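The genes described here are those of the proteasome and immunoproteasome, taken by name from a mouse expression array: every non-control probe whose gene name was Psma, Psmb, Psmc, Psmd, Psme or Psmg followed by a number, or Pomp. This gave 48 genes of 49826 on the array, with 64 probes. Psmc3ip shares the stem but encodes no proteasome protein and was left out. Where a tested gene had several probes, the brightest of those well above background on at least 2 arrays stood for it. Brightness, this background mark and the outlier mark of spots were the only measured values used in choosing among probes. RNA came from C3H10T1/2, a line of mouse embryo fibroblasts in which carcinogens give countable foci of transformed cells; it had been transformed in culture with the carcinogen 3MC (2.5 µg/ml for 2 days) and the tumour promoter TPA (100 ng/ml over 2 weeks) and then grown for 4 weeks without either. The DEM group (2 arrays) was such transformed cells exposed to 0.25 mM diethyl maleate, and the untreated group (2 arrays) was the same transformed cells without it, so both groups carry the 3MC and TPA history. Diethyl maleate is an electrophile that binds glutathione and lowers it in cells. The labels give no length of exposure and do not say whether the 2 arrays of a condition stem from separate flasks. The p-values therefore cover the spread between these arrays alone, and that spread may be technical.

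The proteasome is the cell's main machine for degrading proteins tagged with ubiquitin. Its 20S core is a stack of rings of alpha and beta subunits, and the proteolytic sites lie in the beta rings; a 19S cap binds, unfolds and feeds in the substrate. Interferon signalling is known to replace the catalytic beta subunits by the immune forms Psmb8, Psmb9 and Psmb10 and to raise the 11S activator Psme1 and Psme2, which together favour peptides for presentation on MHC class I. In mammalian cells, Nfe2l1 is known to raise the genes of the whole standard particle when the proteasome is overloaded, and Nfe2l2 responds to electrophiles.

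Most constitutive 20S and 19S genes (22 of 31) rose with DEM and none fell, while 3 of the 6 immune catalytic and 11S genes fell and none rose; the difference between these classes was not tested. Genes of the constitutive 20S core and of the 19S cap stood higher in DEM cells relative to the array's 75th percentile, by about 2-fold in the middle of the 19S group (median log2 change 1.01). Psmb8 and Psmb9, the defining subunits of the immunoproteasome, were more than 12-fold lower in DEM cells. Of 46 member genes tested, 27 rose, 3 fell and 16 did not pass limma's test at an adjusted p of 0.05, beside a background of 15.5% higher and 11.8% lower among all 24658 genes. All 46 were well above background on all 4 arrays; among the 21199 genes of which that is true, 16.4% were higher and 9.68% lower. Both DEM arrays stood above both untreated arrays for 36 members and below them for 5 (42.4% and 26% of all genes tested). The members were named with these results known, so their counts and medians are descriptions.

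The rises are relative to the scaling between arrays. Each array's 75th percentile lay at 449.9 and 412.5 signal units for the DEM arrays, against 701.3 and 747.2 for the untreated arrays, a difference of -0.75 on the log2 scale. On processed signals with no scaling between arrays, a setting added after seeing the data, 7 members were higher and 8 lower. The median of all genes was then -0.59. Scaled to the spike-in RNA, 0 members were higher in DEM cells by limma after adjustment and 2 were lower (2 higher and 2 lower at an unadjusted p under 0.05). The medians then were 0.67 for the constitutive 20S and 0.85 for the 19S genes, against 0.83 and 1.01 in the setting used here, and the median SE of the 46 genes was 0.69, against 0.18. Of the 27 rises, 18 were lost without untreated array 1 and 20 without untreated array 2, and 9 and 8 members in all were then higher, beside 803 and 617 of all genes in place of 3812. The medians without these arrays were 0.77 and 0.79 for the 20S and 0.95 and 1.09 for the 19S genes. The rises of Psmd6 and Psmg4 were also lost without DEM array 1. The rises of Psma5, Psma7, Psmb3, Psmd2, Psmd7 and Psmd11 passed in every setting but spike-in scaling. Psmb8 and Psmb9 were lower in DEM cells with limma under every setting tried, with adjusted p-values of at most 0.0214 and 0.0193.

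The share of spots well above background ranged from 47.8% to 52.7% over the arrays, and no spot was saturated. All arrays were on 1 slide, with the 2 groups in different rows, so position on the slide and DEM cannot be told apart. The fibroblast label was checked with 10 fibroblast markers, all measured: the summed level was 9.77 and 10.3 in DEM cells and 10.62 and 10.67 in untreated cells (log2, relative to the 75th percentile), and 5 of the 10 (Col1a2, Col3a1, Pdgfra, Pdgfrb and Dcn) were lower with DEM. Leukocytes, which hold much immunoproteasome, have as defining markers Ptprc, Cd79a, Itgax and Adgre1, and these were above background on no array. The summed level of the 10 leukocyte markers was 2.26 and 2.68 in DEM cells and 2.09 and 2.34 in untreated cells. Most of this sum was the single marker Cd14, at 2.06 and 2.54 in DEM cells and 1.84 and 2.13 in untreated cells. Of the 10 markers, 5 were bright enough to test, and of these Lyz2 was lower. The part of such cell markers in the proteasome changes was not tested. In such bulk RNA, fewer cells of a type and less RNA per cell cannot be told apart.

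**Figure D1:**
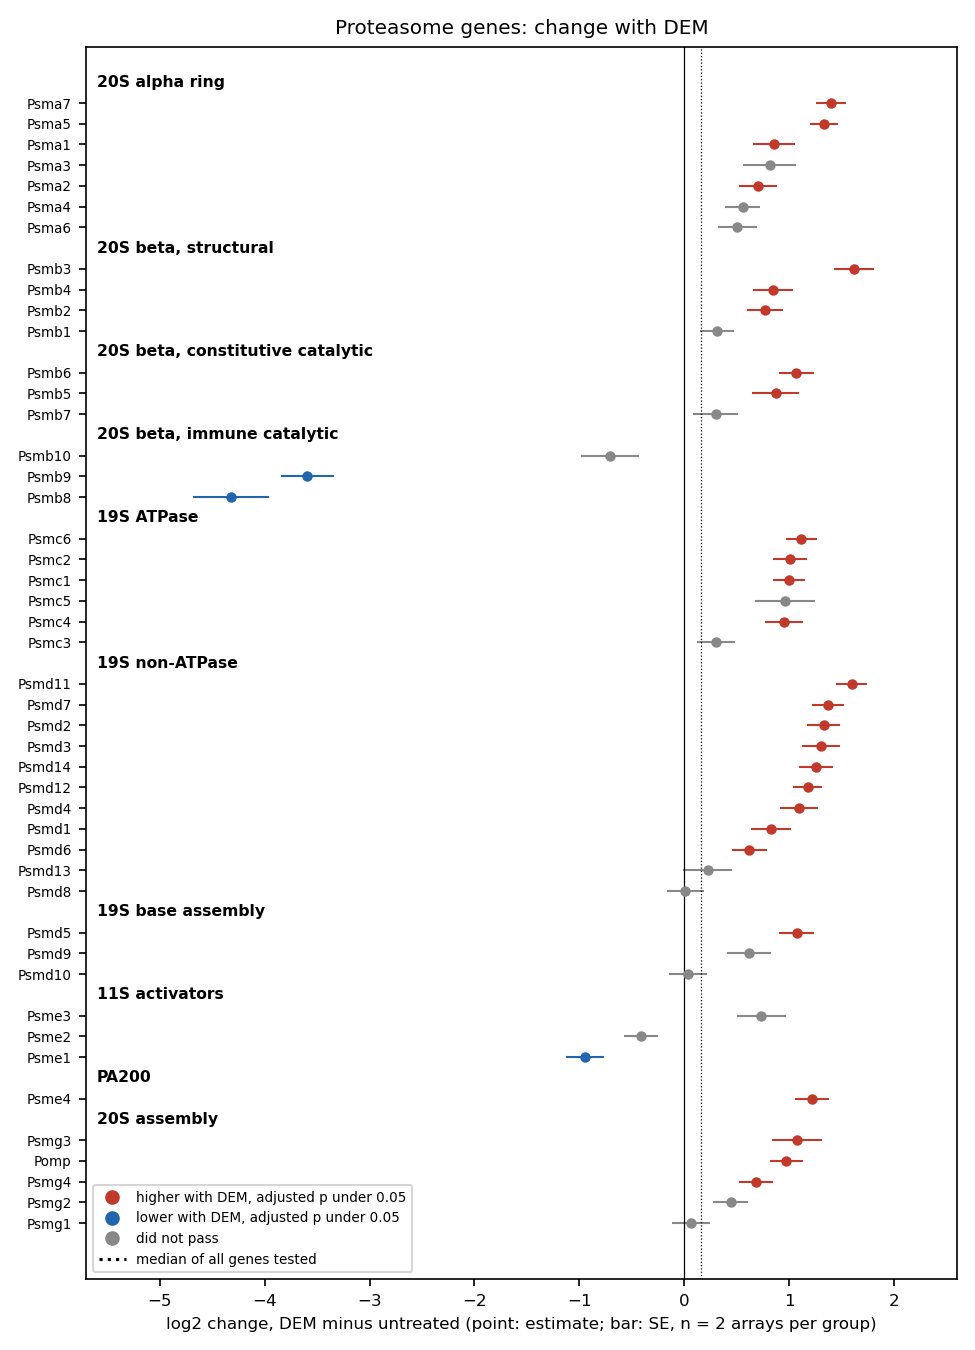
Log2 change (DEM minus untreated, horizontal axis) of the 46 proteasome genes tested, grouped by place in the particle; points are limma estimates, bars 1 SE, with 2 arrays per group, and the dotted line is the median of all genes tested (0.16). With this scaling all constitutive 20S and 19S genes lie to the right of 0 (with no scaling, 5 of the 20S genes and 4 of the 19S genes lie to the left, and Psmd8 does so under quantile, loess, spike-in and normexp settings too), whereas Psmb8 and Psmb9 lie at -4.32 and -3.59.

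The alpha subunits form the outer rings of the 20S core, which gate entry to the proteolytic chamber. Of 7 tested, 4 rose and 3 did not pass, with a median log2 change of 0.81. Psma7 had levels of 7.17 and 7.35 in DEM cells, against 5.90 and 5.83 in untreated cells (log2 signal minus the 75th percentile here and below), a change of 1.40 ± 0.14 (SE; adjusted p = 0.00267 with limma, as for all adjusted p-values below). Psma5 had 7.03 and 7.06 in DEM cells and 5.73 and 5.70 in untreated cells, a change of 1.33 (adjusted p = 0.00259). For both genes the groups were far apart beside the gaps within them. Psma1 had 5.09 and 5.45 in DEM cells and 4.56 and 4.27 in untreated cells (change 0.86, adjusted p = 0.0258). Psma2 had 7.25 and 7.67 in DEM cells and 6.70 and 6.82 in untreated cells (change 0.70, adjusted p = 0.0354). These smaller rises also left no overlap between the groups. Psma3, Psma4 and Psma6 had changes of 0.81, 0.56 and 0.51 with adjusted p-values of 0.0582, 0.0548 and 0.0917; they missed the threshold although both DEM arrays stood above both untreated arrays for each.

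Of the 4 structural beta subunits, which line the inner rings without a proteolytic site, 3 rose. Psmb3 had 7.36 and 7.83 in DEM cells and 6.01 and 5.95 in untreated cells (change 1.62 ± 0.19, adjusted p = 0.00376), a rise within the SE of that of the 19S subunit Psmd11 (1.60 ± 0.15). Its other probe gave a change of 1.53. Psmb4 had 6.45 and 6.84 in DEM cells and 5.68 and 5.91 in untreated cells (change 0.85, adjusted p = 0.0229). Psmb2 had 2.42 and 2.39 in DEM cells and 1.69 and 1.58 in untreated cells (change 0.77, adjusted p = 0.0232). The scaling shows plainly in Psmb2. Its processed signals before scaling were 2407 and 2165 on the DEM arrays and 2263 and 2240 on the untreated arrays. Psmb1 had 4.94 and 5.06 in DEM cells and 4.59 and 4.78 in untreated cells, a change of 0.31 that did not pass (adjusted p = 0.194).

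Each catalytic site of the core has a constitutive subunit and an immune one. Psmb5 carries the chymotrypsin-like site and is replaced by Psmb8, Psmb6 carries the caspase-like site and is replaced by Psmb9, and Psmb7 carries the trypsin-like site and is replaced by Psmb10. The subunits of a pair are related, so the 60-base probes that read them are shown first, as the array files give them; capitals mark bases that differ from the counterpart's probe where both overlap in their best ungapped alignment.
Psmb8, second probe: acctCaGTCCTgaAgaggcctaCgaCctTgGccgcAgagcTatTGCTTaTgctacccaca
Psmb5: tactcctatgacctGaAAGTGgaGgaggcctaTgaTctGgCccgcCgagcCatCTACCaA
Psmb9: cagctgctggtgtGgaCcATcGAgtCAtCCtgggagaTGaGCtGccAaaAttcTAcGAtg
Psmb6: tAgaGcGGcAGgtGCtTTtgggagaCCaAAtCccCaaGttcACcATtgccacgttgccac
Psmb8, brightest probe: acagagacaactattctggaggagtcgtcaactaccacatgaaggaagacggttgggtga
The second Psmb8 probe shared 31 of 50 overlapping bases with the Psmb5 probe (62%), and the Psmb9 probe shared 27 of 48 with the Psmb6 probe (56.2%). The brightest Psmb8 probe is printed without capitals; its best ungapped match to the Psmb5 probe was 44.7% of bases.

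Psmb8 had levels of -1.64 and -2.71 in DEM cells, against 2.06 and 2.24 in untreated cells. The processed signals behind these levels were 145 and 63 on the DEM arrays and 2922 and 3520 on the untreated arrays, and the spot was well above background on all 4. The log2 change was -4.32 ± 0.37 (SE, adjusted p = 0.00157), and the groups lay much further apart than the DEM arrays did from each other. The second probe gave -2.49 and -2.75 in DEM cells and 1.75 and 1.94 in untreated cells, a change of -4.47, so the 2 probes differed by 0.14. Psmb5, its constitutive counterpart, had 4.62 and 5.05 in DEM cells and 3.77 and 4.16 in untreated cells, a change of 0.87 ± 0.22 (adjusted p = 0.0351). The groups did not overlap. The Psmb5 call was lost under 8 of 15 alternatives: quantile (change 0.64), cyclic loess (0.63) and spike-in scaling (0.71), no scaling (0.12), no variance trend (0.87), and without DEM array 2 (0.66), untreated array 1 (0.68) or untreated array 2 (1.07).

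Psmb9 had levels of -1.71 and -1.09 in DEM cells and 2.15 and 2.24 in untreated cells, from processed signals of 138 and 194 against 3103 and 3537. Its log2 change was -3.59 ± 0.26 (adjusted p = 0.00108), a 12.1-fold lower level in DEM cells. Psmb6, the constitutive counterpart, had 5.91 and 6.20 in DEM cells and 4.93 and 5.05 in untreated cells (change 1.07 ± 0.17, adjusted p = 0.00819). This was the largest change of the 3 constitutive catalytic genes.

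The last pair gave smaller values. Psmb10 had levels of 2.79 and 3.46 in DEM cells and 3.63 and 4.04 in untreated cells, so both DEM arrays lay below both untreated arrays, but the change of -0.71 ± 0.28 did not pass (adjusted p = 0.108). The estimate depended on single arrays: it was -0.37 without DEM array 1 (adjusted p = 0.252), -1.05 without DEM array 2 (0.014), -0.92 without untreated array 1 (0.168) and -0.50 without untreated array 2 (0.424). With no scaling between arrays it was -1.46 (adjusted p = 0.00563). Psmb7 had 3.70 and 3.83 in DEM cells and 3.23 and 3.71 in untreated cells; the groups overlapped and the change of 0.30 did not pass (adjusted p = 0.333). The change of the immune gene minus that of its counterpart was -5.19 for Psmb8 and Psmb5, -4.66 for Psmb9 and Psmb6, and -1.01 for Psmb10 and Psmb7. These differences do not depend on a constant scaling of each array, and they were not tested.

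**Figure D2:**
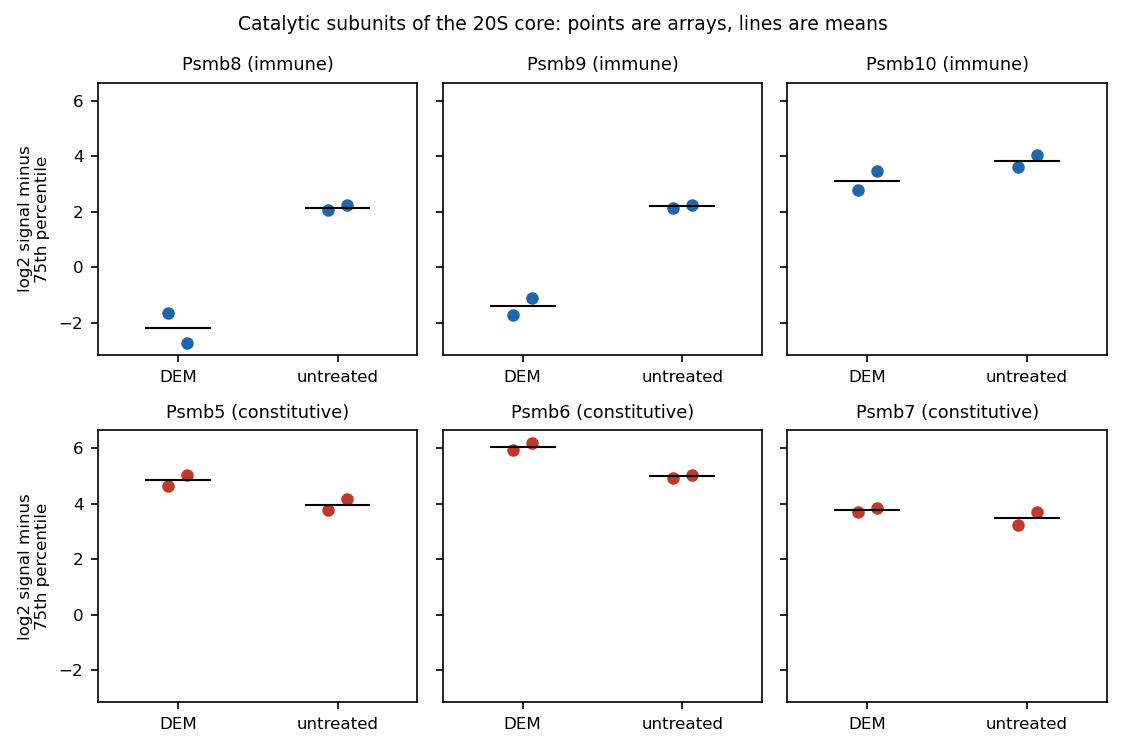
Levels of the immune catalytic subunits (upper row) and their constitutive counterparts (lower row) on each array, as log2 signal minus the array's 75th percentile; points are arrays, lines are means of 2. Psmb8 and Psmb9 lie below 0 on both DEM arrays and above 2 on both untreated arrays, and levels of different probes are not comparable with each other.

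The 19S cap has a base with a ring of ATPases, which unfold the substrate, and a lid and scaffold of non-ATPase subunits. Of 17 genes tested, 13 rose, none fell and 4 did not pass. Psmd11, a scaffold subunit of the lid, had 6.75 and 6.92 in DEM cells and 5.22 and 5.26 in untreated cells (change 1.60 ± 0.15, adjusted p = 0.00198). Psmd7 had 4.93 and 4.86 in DEM cells and 3.47 and 3.57 in untreated cells (change 1.37, adjusted p = 0.00341). Psmd14, the deubiquitinating enzyme of the lid and the partner of Psmd7, had 5.65 and 5.59 in DEM cells and 4.49 and 4.23 in untreated cells (change 1.26, adjusted p = 0.00492). In all 3 the gap between groups was over 1 on the log2 scale on every pair of arrays. Psmd2, the scaffold that docks substrate shuttles, had 5.72 and 5.96 in DEM cells and 4.52 and 4.51 in untreated cells (change 1.33, adjusted p = 0.00388). Psmd4, a ubiquitin receptor, had 5.62 and 5.90 in DEM cells and 4.55 and 4.78 in untreated cells (change 1.10, adjusted p = 0.00922). Psmd1, the other large scaffold of the base, had 4.08 and 4.02 in DEM cells and 3.04 and 3.40 in untreated cells (change 0.83, adjusted p = 0.025). All 3 of these scaffolds and receptors rose without overlap.

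Among the other lid subunits, Psmd3 had 7.68 and 8.11 in DEM cells and 6.54 and 6.64 in untreated cells (change 1.31, adjusted p = 0.0058). Psmd12 had 6.24 and 6.20 in DEM cells and 5.06 and 5.04 in untreated cells (change 1.18, adjusted p = 0.00386), and Psmd6 had the smallest change that passed among the members (0.62, adjusted p = 0.0412). Psmd8 had 3.80 and 3.51 in DEM cells and 3.70 and 3.60 in untreated cells, a change of 0.01 ± 0.18 (adjusted p = 0.972). Psmd13 had 1.47 and 1.19 in DEM cells and 0.88 and 1.33 in untreated cells, a change of 0.22 (adjusted p = 0.51). The groups overlapped for both, which sets them apart in value from the other 9 non-ATPase subunits, whose changes ran from 0.62 to 1.60.

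Of the 6 ATPases, 4 rose by similar amounts. Psmc6 had 5.92 and 6.07 in DEM cells and 4.90 and 4.86 in untreated cells (change 1.12 ± 0.15, adjusted p = 0.00519). Psmc2 had 6.28 and 6.03 in DEM cells and 5.08 and 5.22 in untreated cells (change 1.01, adjusted p = 0.00893), and Psmc1 changed by 1.00 (adjusted p = 0.00747). No array of one group reached into the other for these genes. Psmc5 had 4.54 and 4.84 in DEM cells and 3.32 and 4.13 in untreated cells; its change of 0.96 was as large, its untreated arrays lay further apart, and it did not pass (adjusted p = 0.0554). Psmc3 had a change of 0.30 (adjusted p = 0.258).

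Psmc4 was the member whose probes disagreed most. Its brightest probe had 4.74 and 5.04 in DEM cells and 3.84 and 4.05 in untreated cells, a change of 0.95 ± 0.18 (adjusted p = 0.0154). Its second probe had 3.24 and 3.46 in DEM cells and 2.41 and -4.41 in untreated cells, so untreated array 2 stood far below the other 3. With the mean of both probes the change was 2.65 and did not pass (adjusted p = 0.0988). The 2 probes, as the array files give them, are printed so that the sites read can be seen.
Psmc4, brightest probe: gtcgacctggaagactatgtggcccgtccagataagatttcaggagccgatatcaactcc
Psmc4, second probe: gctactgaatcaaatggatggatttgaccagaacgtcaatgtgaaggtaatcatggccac
Of the 13 members with several probes above background, all had their probes changing in the same direction, with a median range of 0.27 between a gene's probes. The range was 3.40 for Psmc4 and at most 0.57 (Psmd12) for the others. The brightest probe gave the larger change in size for Psmb3, Psmc5, Psmd2, Psmd7, Psmd12, Psmd14, Psme2, Psme4 and Psmg2. The other probes gave 0.60 and 0.80 for Psmd12, 0.75 for Psmd14, and 1.05 and 0.81 for Psme4. For Psma4, Psmb8, Psmc4 and Psmd9 the dimmer probe gave the larger change.

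The activators split. Psme1 and Psme2 form the 11S ring that interferon raises; Psme3 forms a nuclear 11S ring of its own, and Psme4 (PA200) is a large single-chain activator. Psme1 had 3.38 and 3.51 in DEM cells and 4.23 and 4.54 in untreated cells, a change of -0.94 ± 0.18 (adjusted p = 0.0151). Psme2 had 5.09 and 5.34 in DEM cells and 5.58 and 5.67 in untreated cells; both DEM arrays lay below both untreated arrays, and the change of -0.41 did not pass (adjusted p = 0.11). Psme3 had 2.59 and 2.18 in DEM cells and 1.46 and 1.85 in untreated cells, a change of 0.73 that did not pass (adjusted p = 0.0642). Psme4 had 5.52 and 5.64 in DEM cells and 4.47 and 4.26 in untreated cells, a rise of 1.22 ± 0.16 (adjusted p = 0.00512). The immune catalytic and 11S genes together held 6 of the members, of which 3 fell (Psmb8, Psmb9 and Psme1), 3 did not pass and none rose. The Psme1 call was lost when either untreated array was left out (adjusted p = 0.0612 and 0.125) and under spike-in scaling (0.662).

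Of the 8 assembly factors, which are not part of the finished particle, 4 rose. Pomp, the maturation factor of the 20S core, had 7.04 and 7.32 in DEM cells and 6.14 and 6.27 in untreated cells (change 0.97 ± 0.16, adjusted p = 0.00945). Psmg3 and Psmg4, which act as a pair in building the alpha ring, changed by 1.07 and 0.68 (adjusted p = 0.0237 and 0.0299). Psmg1 and Psmg2, the other such pair, did not pass: Psmg1 had 1.09 and 0.97 in DEM cells and 0.90 and 1.03 in untreated cells, with overlap, and Psmg2 had a log2 difference of 0.44 (adjusted p = 0.103). Among the chaperones of the 19S base, Psmd5 had 4.07 and 4.04 in DEM cells and 3.09 and 2.88 in untreated cells (change 1.07, adjusted p = 0.0083). Psmd9 had a log2 difference of 0.62 that did not pass (adjusted p = 0.077), and Psmd10, also known as gankyrin, had 1.31 and 1.39 in DEM cells and 1.23 and 1.40 in untreated cells, with overlap and a change of 0.04. Whether a pair of assembly factors differed from the other pair was not tested.

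The 2 tissue-specific core subunits were not well above background on any array. Psma8 is the alpha subunit of the testis and Psmb11 the catalytic subunit of thymic epithelium, and their processed signals were 5 to 12, so no fold is given.

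**Figure D3:**
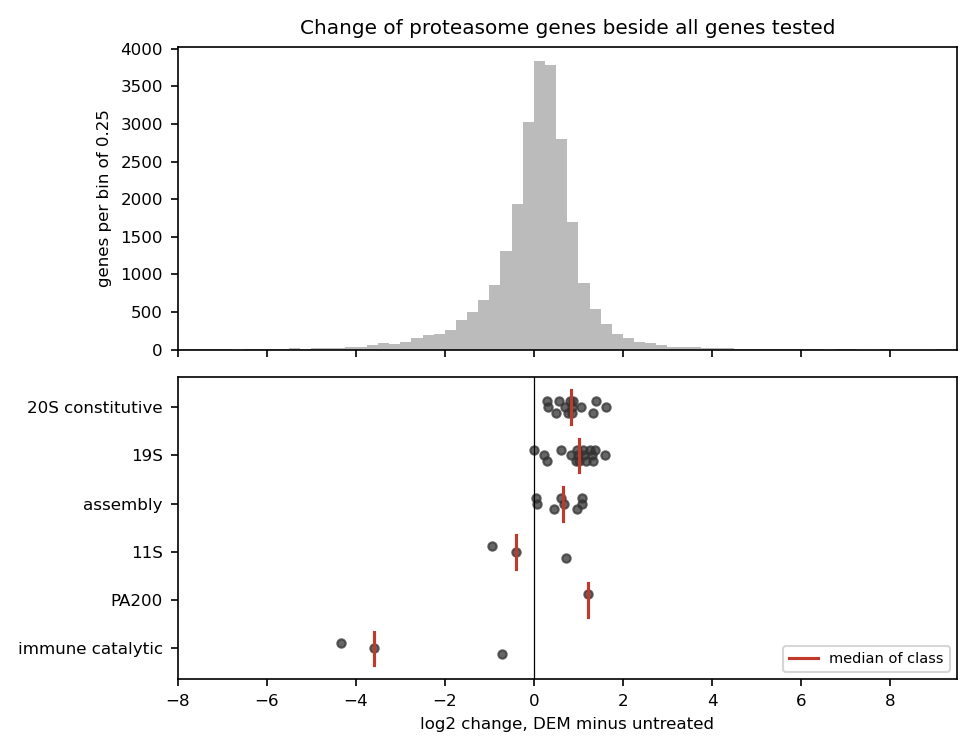
Upper panel, number of genes per 0.25 of log2 change for all genes tested; lower panel, changes of the proteasome genes by class on the same axis, with the class median as a line. The 14 constitutive 20S and 17 19S genes have medians of 0.83 and 1.01 against 0.16 for all genes, and Psmb8 and Psmb9 sit in the left tail.

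Set beside all genes tested, whose median change was 0.16, the medians were 0.83 for the 14 constitutive 20S genes (range 0.30 to 1.62), 1.01 for the 17 genes of the 19S cap (0.01 to 1.60), 0.65 for the 8 assembly factors and -3.59 for the 3 immune catalytic genes. Psmb8 was at percentile 0.446 and Psmb9 at percentile 0.933 of all changes, counted from the lowest. Psmb3 was at percentile 96.1. Psmb8 and Psmb9 thus lay nearer to the end of the distribution than Psmb3 did. Class medians moved with the scaling: with no scaling they were 0.08 for 20S, 0.26 for 19S, -0.10 for assembly factors and -4.34 for the immune catalytic genes, while the median of all genes was -0.59. Relative to that median, the distances were the same as with the 75th percentile (0.67, 0.85, 0.49 and -3.75). This equality is fixed by arithmetic, because the 2 settings differ only by a constant per array, and it is no separate result. Spike-in scaling also differs from them only by a constant per array, so its distances are equal too and are no separate result. These values place proteasome RNA relative to other RNA on the array and do not measure its amount per cell.

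**Figure D4:**
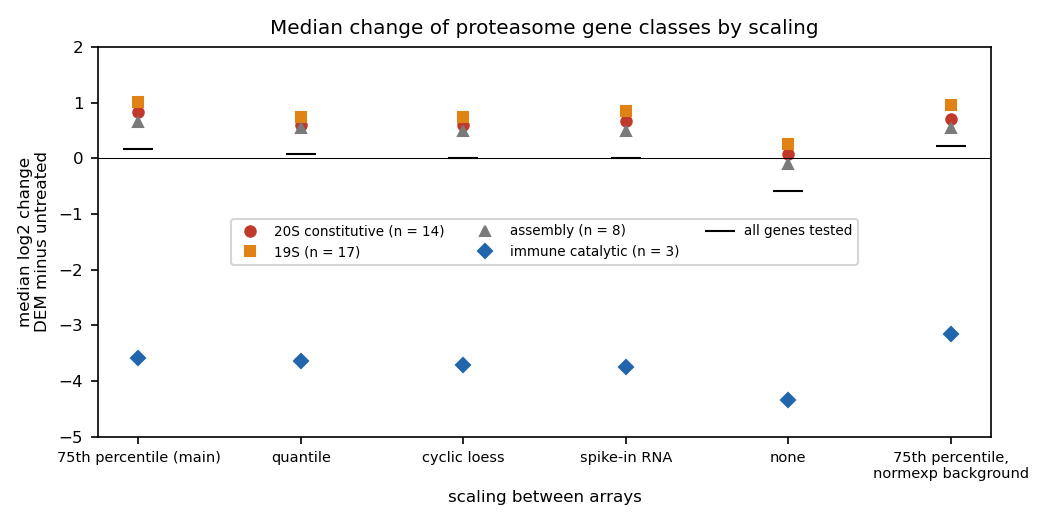
Median log2 change (DEM minus untreated, vertical axis) of 4 classes of proteasome gene and of all genes tested under 6 ways of scaling and background correction. The 20S and 19S classes stay above the median of all genes in each, the assembly median is -0.10 with no scaling, and the immune catalytic median is between -4.34 and -3.16. The main setting, spike-in scaling and no scaling differ only by a constant per array. Distances from the median of all genes are therefore equal in them by arithmetic.

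Genes that work with the proteasome were read from lists of the pathway. Of 14 proteasome-associated genes tested, 8 rose and none fell. Among all 24658 genes tested, 15.5% were higher and 11.8% lower. Txnl1, a thioredoxin-like protein bound to the 19S cap, changed by 1.27 (adjusted p = 0.00439), and the shuttle proteins Ubqln1 and Rad23b, which carry ubiquitinated substrates, changed by 1.20 and 1.31 (adjusted p = 0.00641 and 0.00916). Usp14, a deubiquitinating enzyme of the cap, had 1.76 and 1.76 in DEM cells and 0.81 and 0.75 in untreated cells (change 0.98), and Ecpas, an adaptor and scaffold of the particle, changed by 1.11.

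Of 9 genes in the control of proteasome genes, 4 rose, beside 15.5% of all genes tested. Mafg and Maff, small Maf proteins that pair with the Nfe2-related factors, changed by 1.91 and 1.62 (adjusted p = 0.00228 and 0.00243). Keap1, the inhibitor of Nfe2l2, changed by 0.88, and Vcp, an ATPase that extracts proteins for degradation, by 0.99. Nfe2l2 had 5.66 and 5.20 in DEM cells and 4.91 and 4.53 in untreated cells, a change of 0.71 that did not pass (adjusted p = 0.0636). Nfe2l1, looked up for its role and with its values already seen, had 6.10 and 6.00 in DEM cells and 6.00 and 5.79 in untreated cells (change 0.15, adjusted p = 0.497). Of 9 genes of ubiquitin and its handling, 3 rose, beside the same 15.5% of all genes. They were Zfand2a, a proteasome-binding stress protein (change 2.30), the autophagy receptor Sqstm1 (2.28) and the co-chaperone Bag3 (1.30). The ubiquitin gene Ubb had a log2 difference of 0.51 that did not pass (adjusted p = 0.0716). Nor did Zfand5, which binds ubiquitin and the proteasome, with a log2 difference of 0.57 (adjusted p = 0.057).

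Of 12 genes of antigen processing and its control, 10 fell and none rose, beside 11.8% lower and 15.5% higher among all genes tested. The MHC class I heavy chain gene H2-K1 had 3.80 and 3.27 in DEM cells and 6.08 and 5.61 in untreated cells (change -2.31, adjusted p = 0.00313), and H2-D1 changed by -1.63. Tap2, a chain of the peptide transporter, had -0.56 and -0.89 in DEM cells and 1.12 and 1.14 in untreated cells (change -1.86, adjusted p = 0.00333). Tapbp, which loads peptides, changed by -1.23, and Irf9, a factor of interferon signalling, by -1.73. The median changes of the 4 lists were 0.91 (associated), 0.82 (control), 0.57 (ubiquitin) and -0.95 (antigen processing). H2-K1 and H2-D1 belong to a family of similar genes, so their probes may also read related transcripts.

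In the RefSeq annotation of GRCm38.p6 the 48 members lie on 16 chromosomes, with at most 8 on one (chromosome 11). Psmb9, Tap1, Psmb8 and Tap2 are neighbours within the MHC on chromosome 17, in 34.3 kb that hold no other protein-coding gene (chr17:34182030-34216321). All 4 were lower in DEM cells. Tap1, the other chain of the transporter, was picked for this position; it had 2.26 and 2.34 in DEM cells and 3.34 and 3.14 in untreated cells, a change of -0.94 (adjusted p = 0.0136). Psme1 and Psme2 lie within 12.6 kb of chromosome 14, with Emc9 between them. Psmb5 also has a neighbouring member, Psmb11, in 15.4 kb of chromosome 14 (chr14:54614120-54629556), and of these only Psmb5 was above background.

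Promoters were read as the 250 bases before the gene start in RefSeq's GRCm38.p6, where 40 of the 48 members matched. The letters TGACNNNGC, the core of the antioxidant response element bound by Nfe2l1 and Nfe2l2 with a small Maf, occurred on either strand in 5 of 40 members (12.5%) and in 11.5% of 27025 gene promoters of the same length. The letters of the interferon-stimulated response element occurred in 3 of 40 (7.5%, against 3.46%). These were Psmb3 and Psmd4, which rose, and Psmd9, which did not pass, and no gene that fell held them. The gamma-activated site, TTCNNNGAA, occurred in 2 of 40 (5%, against 8.13%): Psmb8, which fell, and Psmg1, which did not pass. The shares for the antioxidant core were thus close in members and in all genes. Of the members that rose, 24 had a promoter in the table and 4 of these held the antioxidant core (Psmb5, Psmb6, Psmc6 and Psmd12). The promoters of the catalytic genes with a match are printed from 5′ to 3′, with the match in capitals and the last base next to the gene start.
Psmb8, chr17:34197945-34198194, plus strand, TTCNNNGAA: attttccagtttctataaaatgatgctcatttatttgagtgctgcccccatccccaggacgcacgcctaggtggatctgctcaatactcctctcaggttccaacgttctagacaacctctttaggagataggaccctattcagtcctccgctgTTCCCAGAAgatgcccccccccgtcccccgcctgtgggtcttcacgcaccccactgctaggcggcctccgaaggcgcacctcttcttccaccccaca
Psmb5, chr14:54617996-54618245, minus strand, TGACNNNGC: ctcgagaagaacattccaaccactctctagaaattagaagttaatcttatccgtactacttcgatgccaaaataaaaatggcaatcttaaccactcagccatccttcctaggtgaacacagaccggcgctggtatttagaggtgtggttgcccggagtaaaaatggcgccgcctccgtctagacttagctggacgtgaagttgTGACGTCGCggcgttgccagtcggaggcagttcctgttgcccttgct
Psmb6, chr11:70525107-70525356, plus strand, TGACNNNGC: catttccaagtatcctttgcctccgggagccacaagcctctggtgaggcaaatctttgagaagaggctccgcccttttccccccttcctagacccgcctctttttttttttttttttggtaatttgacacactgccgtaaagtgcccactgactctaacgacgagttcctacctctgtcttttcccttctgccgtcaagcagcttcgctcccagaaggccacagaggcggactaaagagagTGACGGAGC
The match ends 89 bases before the start in Psmb8, 39 before it in Psmb5 and directly at it in Psmb6. A match is a run of letters and not a site shown to be bound; the Psmb9 and Psmb10 windows held none of the 3 motifs in these letters.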

How the data were processed

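RNA (500 ng per sample) was labelled with Cy3 and hybridised to 1 array per sample, and groups follow the treatment label. Agilent Feature Extraction 10.7.3.1 had made the intensity values (processed signal) and corrected their background, per the file headers; the mark for well above background used a multiplier of 13. The authors' deposited series table holds log2 values: column medians were -4.30 and -4.36 (DEM) and -4.39 and -4.35 (untreated), and at least 99.96% of probes lay within 0.01 of log2 processed signal minus the array's 75th percentile, so scale and centring were settled from the values.

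Control spots and spots marked as outliers (13 to 68 per array) were left out. Log2 processed signal was reduced by the 75th percentile of non-control probes, replicate spots of the 61307 probes were averaged, and probes well above background on at least 2 arrays were kept. Names came from RefSeq (GRCm38.p6) for 34524 of 40628 gene probes. The brightest kept probe stood for a gene, and 24658 genes were tested in R 4.3.3 with limma 3.58.1 (lmFit, then eBayes with trend; package data.table at version 1.17.8; figures by matplotlib), on 2 residual and 4.03 prior degrees of freedom, and two-sided Benjamini-Hochberg adjustment over all genes tested. The procedure was tested on simulated data with independent noise. The planted changes were larger than the rise of any member, so that test does not cover rises of the size reported here. The number of arrays limits the precision. The members, lists, classes and tests were chosen with earlier results of these data known. Every member is accounted for, and of the other lists the 5 genes with the smallest p are named (Nfe2l1 and Tap1 were added after their values were seen). Alternatives were normexp background correction (offset 50), quantile, cyclic loess and spike-in scaling (7 of 10 spike-in probes), no scaling (added after seeing the data), the authors' log2 values, other filters, the mean of a gene's probes, no variance trend, the replicate block and each array left out.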

Additional observations from a re-analysis of the deposited data

How the results depend on the processing

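The counts below stand beside 27 members higher and 3 lower (9 of 14 constitutive 20S, 13 of 17 19S and 4 of 8 assembly genes higher, 3 of 6 immune and 11S genes lower) and 3812 higher and 2900 lower of all genes. Psmb8 and Psmb9 passed in all 15 alternatives, and 6 of the 27 higher genes (Psma5, Psma7, Psmb3, Psmd2, Psmd7 and Psmd11) passed in all but spike-in scaling. Spike-in scaling left 0 members higher (0 of the 20S, 0 of the 19S and 0 of the assembly genes; 1, 1 and 0 by limma at an unadjusted p under 0.05), 2 lower, and 363 higher and 889 lower of all genes; the spike-in level above the 75th percentile was 2.79 and 3.70 on the DEM arrays and 2.76 and 3.41 on the untreated arrays. Its medians were 0.67 for 20S, 0.85 for 19S and 0.49 for assembly genes, with a median SE over the 46 genes of 0.69, against 0.18. With no scaling, 7 members were higher and 8 lower (3 of the 20S, 4 of the 19S and 0 of the assembly genes higher, 5 of the immune and 11S genes lower), with 877 higher and 9685 lower of all genes, and medians of 0.081 (20S), 0.26 (19S), -0.10 (assembly, reversed) and -4.34 (immune catalytic). Cyclic loess left 5 20S genes and 2529 of all genes higher, with medians of 0.60, 0.75 and 0.49 for 20S, 19S and assembly genes; quantile normalization gave medians of 0.60 and 0.75 for 20S and 19S. Normexp gave 6470 genes higher, no filter 17297, and normexp medians were 0.95 for 19S and -3.16 for immune catalytic genes. Without the variance trend 5 20S genes were higher. Of all calls, 56.8% were higher in the main setting, against 46.5% with quantile, 40.8% with loess, 29% with spike-in scaling, 70% with normexp, 84.7% with no filter and 8.3% with no scaling. The cause of these changes was not tested. The sign turned for Psmd10 (-0.11 with loess, -0.0081 with normexp, -0.039 with quantile, -0.12 with spike-ins), Psmd8 (-0.21, -0.025, -0.19 and -0.15 in the same order), Psmg1 (-0.077 with loess, -0.094 with spike-ins) and, with no scaling, for Psma2 (-0.046), Psma4 (-0.19), Psma6 (-0.24), Psmb1 (-0.44), Psmb7 (-0.45), Psmc3 (-0.45), Psmd6 (-0.13), Psmd8 (-0.74), Psmd9 (-0.13), Psmd10 (-0.71), Psmd13 (-0.53), Psme3 (-0.017), Psmg1 (-0.68), Psmg2 (-0.31) and Psmg4 (-0.065). Leaving out 1 array at a time gave 3 to 11 20S, 5 to 13 19S and 0 to 4 assembly genes higher, 2 to 5 immune and 11S genes lower, 8 to 30 members higher and 2 to 5 lower, and 617 to 4523 higher and 774 to 3840 lower of all genes, with fewest calls when an untreated array was left out, and the remaining one then assumed to vary like the DEM group: 18 of the 27 higher calls were lost without untreated array 1 and 20 without untreated array 2. Medians ran from 0.69 to 0.97 (20S), 0.95 to 1.11 (19S), 0.56 to 0.74 (assembly) and -3.78 to -3.28 (immune catalytic), and the changes of Psmd8, Psmd10 and Psmd13 from -0.14 to 0.16, -0.045 to 0.12 and -0.0017 to 0.45. With the replicate number as a block, 29 members were higher and 4 lower (Psmb10 passed as well, adjusted p = 0.0225 with limma). Same-numbered arrays deviated together with r = 0.08 over genes, and the numbers were not taken to pair the arrays. Yet in both groups array 2 had the higher spike-in level, so these values do not settle whether the numbers pair the arrays.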
